A study of Homo sapiens with 13 samples.

Results

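Arrays that mix the MEF2 motif with the MYC motif were examined as designed enhancers in MEC1, a cell line established from the B lymphocytes of chronic lymphocytic leukaemia. In STARR-seq the tested sequence is transcribed as part of its own reporter, and its mRNA is the readout of its activity. Members were all constructs whose name holds MEF2 and MYC and no other motif, in any order, copy number and flanking context. In the library with 5 bp between neighbouring motifs these were 21 of 542 constructs, with 10330 of 414895 named barcodes. In the library with 10 bp spacers they were 18 of 442 constructs, with 7994 of 314519 named barcodes. In the table of the genome-integrated 5 bp library they were 20 of 530 constructs, with 411 of 16189 barcodes. The members come in 7 orders, written from one end of the array to the other: MEF2_MYC, MYC_MEF2, MEF2_MYC_MEF2, MYC_MEF2_MYC, MEF2_MYC_MEF2_MYC, MEF2_MYC_MEF2_MEF2 and MEF2_MYC_MEF2_MYC_MEF2. Each was built in 3 flanking contexts, and MYC_MEF2_MYC was analysed with 5 bp spacers only.

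All cells carried the label WT, and the labels name no treatment for the episomal assay. Each episomal library was transfected in duplicate and RNA was taken 24 h later, giving 2 mRNA libraries and 1 plasmid DNA library per spacer. The integrated assay used MEC1 cells that held a Cre recombinase under Blasticidin control and a landing pad in which a CMV promoter drives GFP between lox sites. They were kept in Blasticidin before transfection, and cassette exchange put the 5 bp library in place of GFP. The landing pad's position in the genome and the number of founder clones are not given in the labels. Cells that had lost GFP were sorted after 10 to 12 days and cultured for 6 to 7 days more, and 3 joint extractions gave 3 mRNA and 3 genomic DNA samples. Whether the extractions were made from separate cultures is not in the labels, and p-values of the integrated assay thus measure a spread that may be technical.

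MEF2 proteins are MADS-box transcription factors known from muscle, neurons and B lymphocytes, which bind an A/T-rich element and can activate or, with class IIa histone deacetylases, repress. MYC is a basic helix-loop-helix leucine zipper factor that binds E-box DNA as a heterodimer with MAX and drives growth genes; other E-box proteins, among them MXD repressors and USF factors, can bind the same element. An array named for a factor holds its binding motif, and no protein was measured on it.

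Each construct was read through random 12 bp barcodes, and the barcodes below show what the activities rest on. They are the barcodes with the most plasmid reads in the most and the least active member of each episomal library. The motif and flank sequences themselves were not used here.
5 bp, MEF2_MYC_MEF2_MYC_MEF2 context 1: tcagcgtgtagg
5 bp, MEF2_MYC_MEF2_MYC_MEF2 context 1: tggtcaaaccta
5 bp, MYC_MEF2_MYC context 2: caaattagttac
5 bp, MYC_MEF2_MYC context 2: tgttggagtaaa
10 bp, MEF2_MYC_MEF2 context 3: aatacgcgaccg
10 bp, MEF2_MYC_MEF2 context 3: gctctttcctcg
10 bp, MEF2_MYC_MEF2_MYC context 2: tgtagtgtttcc
10 bp, MEF2_MYC_MEF2_MYC context 2: catgagcacaac
In the 5 bp library tcagcgtgtagg had 72 plasmid reads and 90 and 71 mRNA reads. There tggtcaaaccta had 53 plasmid reads and 45 and 44 mRNA reads. The least active design of that library gave caaattagttac 62 plasmid reads and 9 and 2 mRNA reads, and tgttggagtaaa 56 plasmid reads and 1 mRNA read in each replicate. With 10 bp spacers aatacgcgaccg had 78 plasmid reads and 107 and 118 mRNA reads, and gctctttcctcg had 70 plasmid reads and 114 and 104 mRNA reads. The barcode tgtagtgtttcc had 156 plasmid reads but 26 and 17 mRNA reads, and catgagcacaac had 120 plasmid reads and 5 and 6 mRNA reads. The mRNA reads exceeded the plasmid reads in at least 1 replicate for 3 of the 4 barcodes from active members and were few beside the plasmid reads for all 4 barcodes from inactive ones. These are raw reads, not scaled to library size. The members were chosen by summed reads that include these barcodes, so the barcodes illustrate the activities and do not test them.

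Episomal libraries held 3850658 to 4563359 reads. Reads of barcodes with at least 5 plasmid reads were summed per construct, which kept 6274 member barcodes at 5 bp and 5614 at 10 bp. Activity is the log2 ratio of a construct's share of the mRNA to its share of the plasmid DNA, so 0 means that the array takes the same share of both. No barcode was listed with 0 reads in any library of its table, which overstates weak constructs: 12.4% and 14.7% of kept 5 bp member barcodes stood at 1 mRNA read in the replicates, against 17.7% and 21.3% for the constructs named rd. The rd constructs exist once per context, have no motif in their names and serve as the background. Reads have no molecular identifiers, and differences below are given with the spread between replicates.

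With 5 bp spacers, the array of 3 motifs with MEF2 at both ends was the most active of the 7 orders by the mean over contexts. Its mirror composition, MYC at both ends, was the least active. In context 1 alone MEF2_MYC_MEF2_MYC_MEF2 was highest, at 0.09, and MEF2_MYC_MEF2_MEF2 lowest, at -0.99. MEF2_MYC_MEF2 had a mean activity over contexts of -0.01 ± 0.03 (SD, n = 2), which was 1.30 ± 0.03 above rd on the log2 scale. MYC_MEF2_MYC averaged -1.52 ± 0.03, a difference of -0.22 ± 0.03 from rd. The other orders lay between them: -0.45 for MYC_MEF2, -0.50 for MEF2_MYC_MEF2_MYC_MEF2, -0.52 for MEF2_MYC, -0.71 for MEF2_MYC_MEF2_MYC and -1.0 for MEF2_MYC_MEF2_MEF2, with SDs of at most 0.12. The neighbours MEF2_MYC and MEF2_MYC_MEF2_MYC_MEF2 differed by less than the larger of their SDs.

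Single constructs spread over 2.12 log2 units. MEF2_MYC_MEF2_MYC_MEF2 in context 1 was highest, at 0.08 and 0.10 in the replicates, and ranked 138 of 542 constructs; it rested on 46 barcodes. MEF2_MYC_MEF2 in context 1 followed at 0.09 and 0.06, and in context 2 at -0.01 and 0.03. At the other end, MYC_MEF2_MYC stood at -1.98 and -2.07 in context 2 (rank 435) and at -1.59 and -1.62 in context 3. Next above these was MEF2_MYC_MEF2_MEF2 in context 3, at -1.09 and -1.02. The replicate values of the 3 highest and the 3 lowest members did not overlap. Both sets were picked by the mean of these same values, so the gap is a description and not a test. In the least active design 27.7% and 34.2% of barcodes stood at 1 mRNA read, the lowest value a listed barcode can have.

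Exchanging both motifs of the array of 3 gave the largest differences among the orders tested at 5 bp. MEF2_MYC_MEF2 exceeded MYC_MEF2_MYC by 1.02 ± 0.07 (SE) in context 1, 2.03 ± 0.08 in context 2 and 1.5 ± 0.09 in context 3, which is 2.02-, 4.09- and 2.83-fold. All 3 contexts passed in limma (adjusted p = 0.000202, 7.38e-05 and 0.00015), in a comparison added after the data were seen; over all such pairs of the library 53.5% of 71 were higher. The exchange changes both the order and the composition, since one array holds 2 copies of MEF2 and the other 2 copies of MYC. Adding a MYC motif to the end of MYC_MEF2 went with lower activity in 3 of 3 contexts, by -0.80 to -1.44, whereas adding a MEF2 motif to MEF2_MYC went with higher activity in 3 of 3, by 0.39 to 0.61. These step differences are given without a fitted test.

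Against plasmid DNA in edgeR, with TMM scaling over the 442 designs of both libraries, 6 of 18 members were higher at 5 bp, where 40.5% of all designs were, and 7 were lower, where 49.5% were. The higher members were the 3 MEF2_MYC_MEF2 arrays, MEF2_MYC_MEF2_MYC_MEF2 in context 1, MYC_MEF2 in context 1 and MEF2_MYC in context 2. The direction depends on what is taken as 0: scaling by library totals moved the median of all designs by -0.67 and left 0 higher and 15 lower members, and scaling on rd moved it by 0.75 and left 18 higher and 0 lower. Shares of all designs called under such other scalings are not given, here or below, so these counts are not results about the members. The 3 MYC_MEF2_MYC constructs were fitted in the 5 bp library alone, where all 3 were lower (adjusted p = 0.00796 or less), as were 45.2% of 542 constructs. The comparisons that follow are differences within a library, in which its scaling cancels.

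Mixed arrays were next set against the homotypic arrays of the same copy number and context, to ask what mixing the motifs changed. Of the homotypic MEF2 arrays at 5 bp, 2 copies were the most active and longer arrays were lower: 1 copy stood at -1.07 ± 0.02, 2 copies at -0.43 ± 0.11, 3 copies at -1.57 ± 0.05, 4 copies at -2.11 ± 0.10 and 5 copies at -2.77 ± 0.20 (means over contexts, SD over 2 replicates). The arrays of 5 MEF2 copies rested on 5 to 9 barcodes and 12 to 24 mRNA reads per replicate, so their values are the least certain. Homotypic MYC arrays at 5 bp stayed between -0.73 and -1.13 over 2 to 5 copies. The mixed arrays of 4 and 5 motifs stood 1.0 to 2.57 above the MEF2 array of their length and context, and between -0.57 and 0.70 from the MYC array.

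At 5 bp, 14 of 18 members exceeded the MEF2 array of equal copies and context in limma and 3 were lower; over all arrays of 2 motifs, set against the homotypic array of their alphabetically first motif, 62.8% were higher and 17.5% lower. The median difference over members was 1.17, against 0.61 over all such arrays. The largest was MEF2_MYC_MEF2_MYC_MEF2 in context 1, at 2.57 ± 0.21. The 3 lower cases were 2-copy arrays: MEF2_MYC in context 3 at -0.56 ± 0.08, and MYC_MEF2 in context 2 at -0.38 ± 0.11 and in context 3 at -0.47 ± 0.09. With at least 20 barcodes required of each array, which leaves out thinly covered MEF2 comparators, 9 of 13 members were higher.

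Against the MYC array of equal copies and context, 9 of 18 members were higher at 5 bp and 4 lower, where 52.5% and 36.6% of all arrays were higher and lower than the array of their second motif. The gain over MYC was largest for MEF2_MYC_MEF2, at 0.78 ± 0.09, 1.34 ± 0.12 and 1.25 ± 0.10 in contexts 1, 2 and 3. The 4 lower members were MEF2_MYC and MEF2_MYC_MEF2_MYC in context 1 and MEF2_MYC_MEF2_MEF2 in contexts 1 and 3. Members called above both homotypic arrays numbered 6 of 18, where 33.6% of all arrays were: MEF2_MYC_MEF2 in all 3 contexts, MEF2_MYC_MEF2_MEF2 and MEF2_MYC_MEF2_MYC in context 2, and MEF2_MYC_MEF2_MYC_MEF2 in context 1. In the fit of the 5 bp library alone, MYC_MEF2_MYC in context 2 was called below both, by -0.80 ± 0.10 against MEF2 and -0.69 ± 0.08 against MYC, where 6.46% of all arrays were below both.

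The copy-weighted mean of both homotypic log2 activities gives a single expectation for a mixed array, and a departure is the array's activity minus that mean. At 5 bp, 15 of 18 members were above it and 1 was below, with a median of 0.80; over 318 arrays of 2 motifs 65.1% were above and 24.8% below, with a median of 0.52. MEF2_MYC_MEF2_MYC_MEF2 in context 1 departed most, by 1.82 ± 0.17 (adjusted p = 0.000209), followed by MEF2_MYC_MEF2 in context 1 at 1.51 ± 0.07 (adjusted p = 1.59e-05) and in context 3 at 1.48 ± 0.06 (adjusted p = 1.22e-05). The MEF2 comparator of the first had 7 barcodes with 20 and 12 mRNA reads, and its departure moved between 1.62 and 2.03 when single libraries were left out. The member below was MEF2_MYC in context 3, at -0.17 ± 0.06 (adjusted p = 0.0364), and it did not pass without 5 bp mRNA replicate 1 (-0.13, adjusted p = 0.121). In the 5 bp library alone, MYC_MEF2_MYC in context 2 was also below, at -0.73 ± 0.07, where 30.9% of arrays were below. Against the stronger homotypic array in place of the mean, 6 members were above, where 34.9% of all arrays were, and 7 below, where 50.3% were.

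With 10 bp spacers the same order was again on top by the mean over contexts, and the members were spread further by context. It led in contexts 2 and 3, at -0.15 and 0.71, but in context 1 it stood at -0.58, below MYC_MEF2 at -0.08. Its SD over contexts was 0.65, while the SDs that follow are between replicates. MEF2_MYC_MEF2 averaged -0.01 ± 0.02 over contexts, 0.62 ± 0.06 above rd. Below it came MYC_MEF2 at -0.51, MEF2_MYC at -0.65, MEF2_MYC_MEF2_MYC_MEF2 at -0.66, MEF2_MYC_MEF2_MYC at -0.98 and MEF2_MYC_MEF2_MEF2 at -0.98, with SDs of at most 0.06. The pairs MEF2_MYC and MEF2_MYC_MEF2_MYC_MEF2, and both arrays of 4 motifs, did not differ beyond those SDs.

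MEF2_MYC_MEF2 in context 3 was the most active member at 10 bp, at 0.70 and 0.71 in the replicates and rank 73 of 442, with 7478 and 7455 mRNA reads on 352 barcodes. MYC_MEF2 in context 1 followed at -0.07 and -0.08, and MEF2_MYC_MEF2 in context 2 at -0.13 and -0.17. The least active was MEF2_MYC_MEF2_MYC in context 2, at -1.65 and -1.52 (rank 326), then MEF2_MYC_MEF2_MEF2 in context 2 at -1.20 and -1.21 and MYC_MEF2 in context 2 at -1.15 and -1.20. The leading array stood clear of the rest, and the 3 lowest were all in context 2. In edgeR 6 members were higher than plasmid DNA, where 45.7% of designs were, and 8 were lower, where 48.6% were. By library totals, which moved the median of all designs by -0.55, 1 was higher and 16 were lower.

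At 10 bp every member exceeded the MYC array of its length and context: 18 of 18 were higher and 0 lower (also 0 lower at an unadjusted p under 0.05), where 58.4% of all arrays were higher and 32% lower than the array of their second motif. The differences ran from 0.50 to 2.62 with a median of 1.37. The homotypic MYC arrays were themselves low at this spacing: 2 copies averaged -1.44 ± 0.12, 3 copies -1.88 ± 0.14, 4 copies -2.44 ± 0.04 and 5 copies -2.39 ± 0.06, each on 1487 barcodes or more. Against the MEF2 array, 14 of 18 were higher and 2 lower, where 58.4% and 21.2% of all arrays were higher and lower than the array of their first motif. The 2 lower ones were both 2-copy arrays in context 2, MEF2_MYC at -0.88 ± 0.10 and MYC_MEF2 at -0.95 ± 0.11. Members called above both homotypic arrays numbered 14 of 18 at 10 bp, where 34% of all arrays were.

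Departures from the copy-weighted mean at 10 bp were positive for 16 of 18 members and negative for 1, with a median of 0.89; over 318 arrays 66% were above and 21.4% below, with a median of 0.53. MEF2_MYC_MEF2 in context 3 departed by 1.68 ± 0.06 (adjusted p = 8.77e-06) and MEF2_MYC_MEF2_MYC_MEF2 in context 2 by 1.68 ± 0.12 (adjusted p = 8.52e-05). The latter array stood at -0.73 ± 0.11 from rd, and its homotypic arrays were low, at -2.40 for MEF2 and -3.19 for MYC. That MEF2 array had 18 barcodes with 56 and 57 mRNA reads. The next largest departure was that of MEF2_MYC_MEF2_MYC_MEF2 in context 3, at 1.49 ± 0.07 (adjusted p = 1.76e-05). MYC_MEF2 in context 2 was below, at -0.20 ± 0.06 (adjusted p = 0.0251), which did not hold when 20 plasmid reads were required of a barcode (-0.19, adjusted p = 0.0777). Among the 28 pairs of motifs in the series, ordered by median departure from the highest, MEF2 with MYC stood at rank 9 with 5 bp and rank 8 with 10 bp spacers. The pairs hold unlike sets of arrays, such as 6 for FOXO with MEF2 and 18 for MEF2 with MYC. At 5 bp the medians of MEF2 with FOXO, IRF, NFKB, PU1 and RUNX3 were higher (1.05, 0.98, 1.24, 1.98 and 0.89 against 0.80), and that with CTCF was lower (-0.52). At 10 bp these 6 medians were 0.91, 0.89, 1.11, 0.69, 0.37 and -0.27.

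Set against rd of the same context, more members were higher at 5 bp than at 10 bp; the difference between spacings was not tested for this comparison. At 5 bp 16 of 18 were higher and 0 lower (also 0 lower at an unadjusted p under 0.05), with a median of 0.81; all arrays gave 70.4% higher, 22.2% lower and a median of 0.88. At 10 bp 5 were higher and 5 lower, with a median of 0.02; all arrays gave 50% higher, 39.5% lower and a median of 0.21. The 5 higher at 10 bp were MEF2_MYC_MEF2 in context 3 at 1.58 ± 0.11, MEF2_MYC in context 3 at 0.72 ± 0.11, MEF2_MYC_MEF2_MYC_MEF2 in context 3 at 0.63 ± 0.11, MYC_MEF2 in context 1 at 0.60 ± 0.11 and MYC_MEF2 in context 3 at 0.59 ± 0.11. The 5 lower ones were all in context 2, down to -1.28 ± 0.11 for MEF2_MYC_MEF2_MYC. All arrays of a context share 1 rd construct, whose own error enters each of these differences; rd averaged -1.30 at 5 bp and -0.62 at 10 bp. In the 5 bp library alone MYC_MEF2_MYC in context 2 was below rd, at -0.91 ± 0.07, where 27.1% of arrays were.

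The flanking context shifted member activity in both libraries, with more differences past the threshold at 10 bp. At 10 bp, 10 of 18 matched context differences were higher and 6 lower in limma, where 46.1% and 26.6% of all differences were (taken as the later context minus the earlier). Context 3 exceeded context 2 for all 6 orders, by 0.24 for MEF2_MYC_MEF2_MEF2 to 0.95 for MEF2_MYC, each past the threshold. MEF2_MYC_MEF2 gave the largest difference of all, 1.28 ± 0.08 between contexts 3 and 1 (adjusted p = 0.000169), from -0.58 in context 1 to 0.71 in context 3. The rd construct of context 3 was the lowest of its 3 at 10 bp, at -0.87, and that of context 2 the highest, at -0.31, so the order of the members is not that of the flanks without motifs.

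At 5 bp 2 context differences were higher and 6 lower of 18, where 18.9% and 38.9% of all differences were; the 2 higher calls were 1 to 3 when single mRNA libraries were left out. MEF2_MYC_MEF2 was nearly level across contexts at 5 bp, with a range of -0.10 to 0.08 and none of its 3 differences past the threshold. Among the designs present at both spacings, the array of 5 motifs had the largest difference. Its context 2 stood at a difference of -0.99 ± 0.07 from context 1, and its context 3 at -0.77 ± 0.12. MYC_MEF2_MYC, seen at 5 bp only, ranged from -0.94 in context 1 to -2.03 in context 2. With 10 bp spacers the array of 5 motifs was instead highest in context 3, at -0.24 against -0.70 in context 1.

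Motif order was tested on the 2-copy arrays, as MEF2_MYC minus MYC_MEF2 in the same context. In context 1 the array with MEF2 first was lower at both spacings, by -0.33 ± 0.06 at 5 bp (adjusted p = 0.00208) and by -0.62 ± 0.06 at 10 bp (adjusted p = 0.000126). At 5 bp MEF2_MYC stood at -0.48 and -0.45 and MYC_MEF2 at -0.13 and -0.15; at 10 bp they stood at -0.66 and -0.73 against -0.07 and -0.08, without overlap. In context 2 the difference was 0.20 ± 0.06 at 5 bp (adjusted p = 0.0159), a call that was lost without either of the 10 bp mRNA replicates and in the 5 bp library alone, and 0.07 ± 0.06 at 10 bp (adjusted p = 0.334). In context 3 it was -0.09 ± 0.07 and 0.13 ± 0.07, neither past the threshold. So 1 of 3 order differences was higher and 1 lower at 5 bp, where 29.8% and 42.9% of 84 pairs were, and 0 and 1 at 10 bp, where 25% and 29.8% were (0 higher also at an unadjusted p under 0.05). The 5 bp call in context 1 was not made with at least 20 plasmid reads per barcode.

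Along the alternating series, mean activity was higher with 3 motifs than with 2 and lower with 4 than with 3, in every context and at both spacings. At 5 bp the step from MEF2_MYC to MEF2_MYC_MEF2 was 0.54, 0.39 and 0.61 in contexts 1, 2 and 3, and at 10 bp 0.12, 0.95 and 0.86. A second MYC at the end went with differences of -0.84, -0.85 and -0.42 at 5 bp and by -0.06, -1.44 and -1.41 at 10 bp. A MEF2 in its place, as in MEF2_MYC_MEF2_MEF2, went with differences of -1.07, -0.96 and -0.95 at 5 bp and by -0.21, -1.05 and -1.67 at 10 bp. Either motif in the fourth position thus went with a lower mean in each context at both spacings. With the fifth motif, a MEF2, the mean was 0.85 higher in context 1 at 5 bp and 0.55 and 0.46 higher in contexts 2 and 3 at 10 bp, and the other three steps lay between -0.15 and -0.06. Replicate SDs of these steps were 0.01 to 0.19, and the step of -0.06 from 3 to 4 motifs in context 1 at 10 bp was close to its own SD of 0.06. The steps carry no fitted test.

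The spacing itself was tested as the difference of the 10 bp and 5 bp activities in 1 edgeR fit. Of 18 members 4 were higher at 10 bp and 5 lower, where 36% and 41.2% of all designs were. The higher ones were all in context 3: MEF2_MYC_MEF2 by 0.82 ± 0.09, MEF2_MYC by 0.57 ± 0.09, MEF2_MYC_MEF2_MYC_MEF2 by 0.44 ± 0.12 and MYC_MEF2 by 0.35 ± 0.09. The lower ones were in contexts 1 and 2, from -0.58 for MYC_MEF2 in context 2 to -0.78 for MEF2_MYC_MEF2_MYC_MEF2 in context 1. These signs are relative to all designs: scaled on rd, which moved the median of all designs by -0.71, 0 members were higher and 15 lower. The departure from the homotypic mean, in which scaling cancels, was larger at 10 bp for 8 members and smaller for 3, where 35.2% and 34.6% of all arrays were; the median difference was 0.15 over members and -0.01 over all. MEF2_MYC in context 3 gained most, by 0.98 ± 0.08, and MEF2_MYC_MEF2 in context 1 lost most, at -0.94 ± 0.09. A departure also moves with its comparators: the homotypic MYC arrays of 4 copies averaged -0.80 at 5 bp and -2.44 at 10 bp.

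In the integrated assay most member barcodes gave no mRNA. Of 411 member barcodes 82 had mRNA in any of the 3 replicates, 20.0% (95% Wilson interval 16.4 to 24.1%), and 9.16% ± 1.76 (SD, n = 3) had it in a given replicate. The share was 19.5% (13.5 to 27.4%) for rd, 23.7% (18.9 to 29.2%) for homotypic MEF2 and 22.0% (19.3 to 25%) for homotypic MYC arrays, while all arrays of 2 motifs reached 37.5% (36.6 to 38.3%). The member share thus lay within the intervals of rd and of homotypic MEF2 and MYC arrays, and below that of mixed arrays at large. By length it was 26.2% for 2 motifs, 15.6% for 3, 24.1% for 4 and 11.1% for 5, the last on 9 barcodes. The intervals cover counting error only, barcodes of a construct share its sequence, and no read depth is known for these values.

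The integrated mRNA sat on a few barcodes, which sets how far the construct values can be read. The leading 6 barcodes held 76.7% of all member mRNA, and the first 3 of them were as follows, chosen after their values were seen.
MYC_MEF2 context 2: agggttccgatg
MEF2_MYC context 3: cttctcgggcag
MYC_MEF2 context 1: catgagctctaa
The barcode agggttccgatg gave 1478, 3330 and 4165 RPM (reads scaled to the size of the library) of mRNA against 41.5 to 57.4 RPM of genomic DNA. For cttctcgggcag the mRNA was 1079, 916 and 434 RPM, and for catgagctctaa it was 552, 1113 and 239 RPM. Their constructs drew 96.4%, 88.3% and 91.9% of their mRNA from these single barcodes. The integrated values of these constructs are therefore in large part values of 1 barcode each.

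Of 20 member constructs 19 had at least 3 barcodes, and activity here is log2 of summed mRNA over genomic DNA RPM, each with 0.5 added, which understates changes of low constructs. In limma 1 of 19 was higher than genomic DNA, where 14.4% of constructs were, and 13 were lower, where 59.1% were. Without mRNA replicate 3, 3 were higher, and centred on rd 4 were higher and 5 lower. The higher one was MYC_MEF2 in context 2, at 1.20, 2.36 and 2.66 in the replicates (2.07 ± 0.37 SE, adjusted p = 0.00249). Without the leading mRNA barcode of each construct it stood at -2.88. MEF2_MYC_MEF2, the most active order in the episomal libraries by the mean over contexts, averaged -5.09 ± 0.27 (SD, n = 3) over contexts here. Its summed mRNA was 44.2, 0 and 0 RPM in context 1, 0, 73.3 and 53.6 RPM in context 2 and 61.5, 29.3 and 61.7 RPM in context 3. The SDs of its single constructs were 3.65, 3.96 and 0.74 in contexts 1, 2 and 3, on 9, 20 and 20 barcodes. Values at 0 mRNA are set by the added 0.5. They fell in different replicates in contexts 1 and 2, so the SD of 0.27 hides this spread. MEF2_MYC_MEF2_MEF2 in context 1 was listed at 0 mRNA in all 3 replicates, on 3 barcodes.

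Members whose summed mRNA was above 0 in all replicates could be set beside one another with their replicate spread. MYC_MEF2_MYC, with the most integrated barcodes, stood at -1.59 ± 0.30 (SD, n = 3) in context 1 on 65 barcodes, at -3.71 ± 0.47 in context 2 on 54 and at -3.16 ± 0.43 in context 3 on 50. Of these barcodes 9, 9 and 8 had mRNA in any replicate, and in contexts 2 and 3 no barcode had it in all 3. Of the mRNA in context 1, 74.8% came from 1 barcode, and the values of contexts 2 and 3 overlapped between replicates. Against rd of the same context the array stood at -0.59, -4.46 and 0.62 in contexts 1, 2 and 3. The rd constructs themselves ran from -3.77 in context 3 to 0.75 in context 2. MEF2_MYC in context 3 stood at -0.36 ± 0.58 on 27 barcodes and MYC_MEF2 in context 3 at -2.14 ± 0.34 on 31. Single barcodes held 88.3% and 86.0% of their mRNA.

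Against the copy-weighted mean of integrated homotypic arrays, 4 of 14 members were higher and 3 lower, where 24.3% and 15.5% of all arrays were. The higher ones were MYC_MEF2 in context 2 at 4.45 ± 0.50 (adjusted p = 0.0022), MYC_MEF2 in context 1 at 3.67 ± 1.06 (adjusted p = 0.0396), MYC_MEF2_MYC in context 1 at 1.97 ± 0.30 (adjusted p = 0.00654) and MEF2_MYC in context 3 at 1.85 ± 0.49 (adjusted p = 0.0331). The lower ones were MYC_MEF2_MYC in context 3 at -4.84 ± 0.38 (adjusted p = 0.000956), MEF2_MYC_MEF2 in context 3 at -2.58 ± 0.71 (adjusted p = 0.0377) and MYC_MEF2_MYC in context 2 at -2.18 ± 0.49 (adjusted p = 0.0194). The value of MYC_MEF2 in context 1 rests on MEF2_MEF2 in that context, which had 3 barcodes with summed mRNA of 38.1, 0 and 0 RPM (-6.02 ± 4.21, SD, n = 3), and it moved between 2.61 and 4.62 when single libraries were left out. Both lower calls of context 3 were made against MYC_MYC_MYC in that context, whose mRNA came largely from 1 barcode of 68400 to 74270 RPM. The mRNA and genomic DNA of 1 number were extracted jointly, and with that number as a replicate block 2 members were higher and 1 lower. The calls lost were MYC_MEF2 in context 1 (adjusted p = 0.0844), MEF2_MYC in context 3 (0.0736), MEF2_MYC_MEF2 in context 3 (0.0674) and MYC_MEF2_MYC in context 2 (0.0581). Without any 1 of the genomic DNA replicates 2 members were higher and 1 lower, and without the leading mRNA barcode of each construct 1 of 12 was higher. The median over members was -0.31, and 0.32 without mRNA replicate 3; MEF2 with MYC stood at rank 15 of 28 pairs.

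Against integrated MEF2 arrays 4 of 14 members were higher and 0 lower, where 22.9% and 23.7% of all arrays were (1 lower at an unadjusted p under 0.05); leaving out 1 genomic DNA replicate gave 2 higher, and 1 and 2 were lower without mRNA replicate 1 and 3. Against MYC arrays 3 of 19 were higher and 5 lower, where 27.9% and 21.5% of all arrays were; 7 were higher without mRNA replicate 3. Above both were 2 of 14, MYC_MEF2 in context 2 and MYC_MEF2_MYC in context 1, where 8.53% of all arrays were; with the replicate block the latter was not called against MYC (1.41 ± 0.41, adjusted p = 0.0679). Against rd 3 of 19 were higher and 8 lower, where 29.6% and 29.4% of all arrays were. The higher ones were MEF2_MYC in context 3 at 3.42 ± 0.28, MEF2_MYC_MEF2_MYC in context 1 at 2.01 ± 0.28 on 4 barcodes and MYC_MEF2 in context 3 at 1.63 ± 0.24. Without the leading mRNA barcode of each construct, MYC_MEF2 in context 3 turned to -1.96 and 1 of 18 members was above rd. Lower calls with a replicate at 0 mRNA were MEF2_MYC_MEF2 in contexts 1 and 2, MEF2_MYC_MEF2_MEF2 in context 1 and MEF2_MYC_MEF2_MYC_MEF2 in context 2. MEF2_MYC_MEF2_MYC in context 2 had 0.10 RPM in replicate 3. The sizes of these differences depend on the added 0.5. The other lower ones, all in context 2, were MEF2_MYC at -2.62 ± 0.45, MEF2_MYC_MEF2_MEF2 at -2.83 ± 0.51 and MYC_MEF2_MYC at -4.46 ± 0.48. The integrated rd constructs themselves ran from -3.77 in context 3 to 0.75 in context 2, so differences from rd also move with rd. Of all rd mRNA, 63.1% came from 1 barcode. MYC_MEF2 in context 3, called above rd, was itself lower than genomic DNA, at -2.14 (limma, adjusted p = 0.000445). Leaving out 1 genomic DNA replicate left 5 lower than rd, and leaving out mRNA replicate 1 or 3 gave 5 or 6 higher.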

How the data were processed

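For the episomal libraries, the deposited tables hold the authors' raw counts of reads for each barcode, per the file headers. The authors also deposited RPM values per barcode for the integrated mRNA and genomic DNA, beside plasmid DNA counts; no barcode there fell under 2 RPM in a genomic DNA sample. Aligner and barcode counter are not stated in the labels, 9 columns of per-sample values with no match in the labels stayed unused, and the 16.6 to 18.5% of episomal reads on barcodes with no construct name were left out. Integrated mRNA and genomic DNA of 1 number come from 1 joint extraction, per the labels' protocols; their deviations from the group means correlated at r = -0.02, 0.05 and -0.03. Samples were grouped by library, spacer and material in their titles. The members, comparators and lists were chosen with earlier results of these data known.

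Reads of barcodes with at least 5 plasmid reads were summed per construct (at least 5 barcodes; integrated, 3). The 442 designs shared by both spacers were fitted with edgeR 4.0.16 (quasi-likelihood test, TMM, R 4.3.3) over 6 libraries; the spread of the single plasmid DNA library of a spacer was assumed equal to that of the mRNA libraries. Differences between constructs were taken within each library as log2 shares and tested with limma 3.58.1 over all arrays of the kind; integrated values were log2(RPM + 0.5). Values of MYC_MEF2_MYC come from fits of the 5 bp library alone. Benjamini-Hochberg adjusted p-values were taken over all constructs of a comparison, with 0.05 as threshold. The edgeR fit, without TMM, and the limma fit were tested on simulated data. For differences against rd, limma pooled the spread over all arrays into 1 value. Replicates differed beyond sampling noise (chi-square per degree of freedom 5.37 at 5 bp and 6.76 at 10 bp). Statistics in full are given for the 3 highest and 3 lowest members per library, the 3 largest departures each way, and members and order pairs past the threshold. Alternatives were other scaling, DESeq2 1.42.0, read and barcode minimums, other expectations, pseudocounts, replicate terms and left-out libraries.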

Additional observations from a re-analysis of the deposited data

Results flagged for a closer look

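For several members the activity, or the departure from the homotypic arrays, differed between the 5 bp and 10 bp libraries by a test of the difference itself. Unless stated otherwise, values here are log2 differences, 10 bp minus 5 bp, with adjusted p under 0.05. The departure from the copy-weighted homotypic mean (limma) was larger at 10 bp for MEF2_MYC in context 3 (0.98), MEF2_MYC_MEF2_MYC in contexts 1 (0.81) and 3 (0.56), MYC_MEF2 in contexts 3 (0.76) and 1 (0.38), MEF2_MYC_MEF2_MYC_MEF2 in context 2 (0.56), and MEF2_MYC_MEF2_MEF2 in contexts 1 (0.41) and 3 (0.34). It was smaller for MEF2_MYC_MEF2 in context 1 (-0.94), MEF2_MYC in context 2 (-0.53) and MYC_MEF2 in context 2 (-0.40). A departure also moves with its comparators. For MEF2_MYC_MEF2_MYC the activity difference did not pass in context 1 (0.13) or context 3 (-0.16). The MYC arrays of 4 copies stood at -0.45 and -0.49 in these contexts at 5 bp, and at -2.10 and -2.20 at 10 bp. The MEF2 arrays of 4 copies stood at -2.28 and -2.10, and at -2.00 and -1.87.

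Activity itself (edgeR, TMM) was higher at 10 bp for MEF2_MYC_MEF2 (0.82), MEF2_MYC (0.57), MEF2_MYC_MEF2_MYC_MEF2 (0.44) and MYC_MEF2 (0.35), each in context 3. It was lower for MEF2_MYC_MEF2_MYC_MEF2 in context 1 (-0.78), MEF2_MYC_MEF2_MYC in context 2 (-0.73), MEF2_MYC in context 2 (-0.70), MEF2_MYC_MEF2 in context 1 (-0.64) and MYC_MEF2 in context 2 (-0.58). The 2 libraries were transfected and sequenced separately with their own plasmid DNA, so spacer and library cannot be told apart.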

How the results depend on the processing

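Counts below are members passing the test, with the value as reported in brackets. Shares of all constructs called are not given for these settings, so the counts show only how the calls depend on processing. By library totals, against plasmid DNA, 0 [6] were higher and 15 [7] lower at 5 bp and 1 [6] and 16 [8] at 10 bp; scaled on rd, 18 and 0 at 5 bp, and 10 bp against 5 bp gave 0 [4] higher and 15 [5] lower. DESeq2 gave 2 [7] lower at 5 bp and 9 [5] lower between spacers. The totals turned MEF2_MYC_MEF2 at 5 bp to -0.0454, -0.118 and -0.23 (contexts 1, 2 and 3), MEF2_MYC_MEF2_MYC_MEF2 context 1 to -0.0342, and at 10 bp MEF2_MYC_MEF2 context 2 to -0.15, MEF2_MYC_MEF2_MYC_MEF2 context 3 to -0.24 and MYC_MEF2 context 1 to -0.0761. Scaling on rd turned MEF2_MYC context 3 at 5 bp to 0.58 and MEF2_MYC_MEF2_MEF2 context 3 to 0.23.

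At 20 plasmid reads (11 members with MEF2 comparators) departures were 9 [15] higher at 5 bp, 9 [16] higher and 0 [1] lower at 10 bp and 3 [8] larger between spacers; 7 [14] exceeded MEF2 at each spacing, 1 [4] was below MYC at 5 bp, 0 [1] order pairs were lower at 5 bp, and context differences were 0 [2] higher at 5 bp and 3 [6] lower at 10 bp. At 20 barcodes (13 members) 2 [1] departures were lower at 10 bp, 5 [8] were larger between spacers and 9 [14] exceeded MEF2 at each spacing; integrated, where only 8 members remain (7 for departures), 6 of 8 [13 of 19] were below genomic DNA, 2 of 7 [4 of 14] departures were higher and 2 of 8 [8 of 19] were below rd. The 5 bp library alone, which adds MYC_MEF2_MYC, gave 2 [1] lower departures, 7 [4] below MYC, 1 [0] below rd and 0 [1] higher order pairs, and MEF2_MYC context 3 at 0.0232. No plasmid minimum left 1 [2] higher context difference. A linear mean gave 2 [1] lower departures at 10 bp; the stronger homotypic array gave 6 [15] higher and 7 [1] lower at 5 bp, 2 [1] lower at 10 bp, and turned MEF2_MYC_MEF2_MEF2 context 3 at 5 bp to -0.57.

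Integrated values centred on rd gave 4 [1] higher and 5 [13] lower. At least 1 barcode gave 5 [3] lower departures and 2 [0] below MEF2. Without the leading mRNA barcode of each construct, an alternative chosen after seeing the data, 0 [1] were above genomic DNA, 1 [4] departure was higher, 0 [4] exceeded MEF2, 1 [3] exceeded MYC, and 1 [3] was above and 5 [8] below rd; MYC_MEF2 contexts 1 and 2 turned to -2.67 and -2.88, and context 3 against rd to -1.96.

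Leaving out single libraries gave 0 to 1 lower departures and 0 to 1 higher order pairs at 5 bp, and 1 to 3 higher context differences. Integrated, it gave 1 to 3 above genomic DNA, departures of 2 to 4 higher and 1 to 4 lower, 2 to 4 above and 0 to 2 below MEF2, 2 to 7 above MYC, and 3 to 6 above and 5 to 9 below rd. Where only 1 mRNA replicate remained, it was taken to vary like the other groups. Replicate numbers did not pair 5 bp with 10 bp samples (r = 0.05), whereas integrated numbers mark a joint extraction. With the replicate block 0 [1] departures were lower at 10 bp, 1 [2] context difference was higher at 5 bp, and integrated departures were 2 [4] higher and 1 [3] lower; no other count of members moved by over 1.5 times. The cause of these changes was not tested. Of 450 alternative values of counts, 376 stayed within 1.5 times the reported count, and of 70 alternative values of medians over members, 47 stayed within the replicate spread. Integrated values are limited by few barcodes with mRNA.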

Other observations

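Of the 411 integrated member barcodes, 252 were also listed under the same construct name in the episomal 5 bp table. The 58 of these with integrated mRNA had a median episomal activity of -0.77 (quartiles -1.57 and -0.07), and the 194 listed at 0 integrated mRNA had a median of -0.87 (quartiles -1.66 and -0.23). The quartile ranges of both groups overlap over most of their length. No test was run on these barcodes, which share constructs.

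Single barcodes of a member spread far more widely than the member's replicates. In MEF2_MYC_MEF2 context 1 at 5 bp, the 5th and 95th percentiles of log2 activity over 180 barcodes were -1.79 and 1.17 in mRNA replicate 1, around a median of 0.09. In MYC_MEF2_MYC context 2 they were -3.82 and -0.40 over 541 barcodes, around a median of -2.24.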
